A study of Mus musculus with 6 samples.

Results

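The genes described here are 10 components and outputs of the circadian clock, Clock, Per1, Per2, Per3, Cry1, Cry2, Dbp, Tef, Hlf and Nfil3, chosen by name among 18194 genes that carry a symbol on the array. A probe set counted for a gene where the platform annotation gave that symbol alone. This left 24 of 45101 probe sets, with at least 1 for each of the 10 genes and none shared with another gene.

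Colon and liver were taken from male C57BL6/J mice, 7 weeks old, kept with lights on from 8 h to 20 h, and RNA was read on whole-genome Affymetrix arrays. The control group (CON) was fed the basal diet and drank plain water. The second group (DSS) was fed the same diet, with 7 days of plain water before 1.5% (w/v) dextran sodium sulphate was added to it. This polymer damages the lining of the colon and inflames it. The third group (DSSPAR) received 2% parsley in its diet from the start and the polymer after an equal 7 days of water. Exposure to the polymer lasted 10 days in DSS and 9 days in DSSPAR by the treatment protocols (the growth protocol has 9 days), so diet and length of exposure cannot be told apart. The hour at which mice were killed is not given in the sources used here. RNA of 7 mice was pooled for each group and tissue, and each pool was read on 1 array. Every difference therefore compares 2 pools, without a replicate check or a p-value. Precision is limited by the small number of arrays.

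The clock is a feedback loop present in most cells. The protein CLOCK pairs with BMAL1 (gene Arntl) and switches on genes through a DNA motif called the E-box, among them the Per and Cry genes, whose products then repress CLOCK and BMAL1. A side loop runs through the nuclear receptors REV-ERB (Nr1d1, Nr1d2) and ROR. Dbp, Tef and Hlf encode the PAR bZIP transcription factors, which carry the rhythm to metabolic genes through a motif called the D-box, while NFIL3 binds the same motif as a repressor. Transcripts of most of these genes vary with the time of day in mouse liver, and several follow feeding.

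The promoters show which of these motifs lie close to the members' start sites. Sequences are from RefSeq on GRCm38.p6, the 250 bases before each annotated start, and 9 of the 10 genes matched, with 13 windows, while Per2 did not. Motifs were searched on both strands as E-box CACGTG, D-box TTACGTAA or TTATGTAA, cAMP response element TGACGTCA, and for the ROR element by its usual extended sequence. Per3 and Dbp are printed whole because they are the members furthest below CON in the DSS colon, and the E-box stretches because they show the motif of the core loop. Capitals mark the motif.
Per3 promoter, chr4:151044666-151044915, minus strand: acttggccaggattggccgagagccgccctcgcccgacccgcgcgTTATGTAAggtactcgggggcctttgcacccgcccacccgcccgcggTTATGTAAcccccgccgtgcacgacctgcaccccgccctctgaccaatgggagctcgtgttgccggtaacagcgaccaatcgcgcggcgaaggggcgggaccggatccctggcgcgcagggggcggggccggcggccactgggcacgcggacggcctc
Dbp promoter, chr7:45704997-45705246, plus strand: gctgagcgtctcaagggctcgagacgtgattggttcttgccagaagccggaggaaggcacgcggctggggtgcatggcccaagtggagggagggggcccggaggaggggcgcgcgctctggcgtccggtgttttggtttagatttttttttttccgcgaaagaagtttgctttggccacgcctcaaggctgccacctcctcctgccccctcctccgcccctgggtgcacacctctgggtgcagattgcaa
Cry1 E-box, chr10:85185099-85185124, minus strand: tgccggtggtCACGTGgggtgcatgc
Per1 E-box, chr11:69098773-69098798, plus strand: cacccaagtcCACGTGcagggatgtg
Tef E-box of the first window, chr15:81802536-81802561, plus strand: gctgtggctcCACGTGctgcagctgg
Tef E-box of the second window, chr15:81811266-81811291, plus strand: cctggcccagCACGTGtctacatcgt
The Per3 window held 2 D-boxes, 205 and 158 bases before the start. No other member's window held a D-box, and 0.931% of all 32851 promoter windows of this length held at least 1. An E-box was found in 3 of the 9 genes, Cry1, Per1 and Tef, and 6.86% of all 27025 genes with a window held it. The cAMP response element lay in the Hlf window, 9 bases before the start (1.55% of all windows), and no member window held the ROR element (0.177% of all windows). The matches did not overlap each other, and none of the 4 motifs was in the printed Dbp window. A match is a description of the letters, not a measured binding site.

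Arrays had like means within a tissue and unlike means between tissues (mean intensity without the lowest and highest 2%, 106.2 to 111.0 in colon and 500.0 in liver), so levels are not compared between tissues. The floor, the median of all probe sets over the arrays of a tissue, was 25.1 for colon and 96.6 for liver. Lower values were set to the floor, and a fold against such an array is given as "at least". The log2 ratios of 2 probe sets for 1 gene differed with a robust SD of 0.363 to 0.422 in colon and 0.485 to 0.569 in liver, which leaves out differences between pools. Liver arrays had all 7 hepatocyte markers above the floor and colon arrays all 8 colon epithelium markers. The colon DSS array stood apart by exocrine pancreas genes, 5 of 5 above the floor with a summed intensity of 1849, against 35.9 in CON and 29.8 in DSSPAR, where 0 of 5 were above it. The 18S ribosomal RNA control (5' probe set) read 6156, 4018 and 390.4 in colon CON, DSS and DSSPAR. In colon 18 of the 24 member probe sets were above the floor on all 3 arrays and 3 on none, and in liver 18 and 2.

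In colon, the polymer comparison (DSS against CON) put Dbp and Per3 below CON and Nfil3 above it, and left the others within 2-fold. That is 3 of 10 members at least 2-fold off, where 7.15% of all 11952 genes measured were, 1 higher (5.18% of all genes) and 2 lower (1.97%). The split over all genes, 619 higher and 236 lower, was 704 and 191 after each array was centred at its median. Past 1.5-fold were 3 members (20.5% of all genes) and past 3-fold none (2.28%). The median log2 ratio of the 10 members was -0.10, against 0.04 over all genes. The DSS array is the one with exocrine pancreas genes, and their part in the values of Dbp, Per3 and Nfil3 was not tested. In bulk tissue, fewer cells of a type and less RNA per cell cannot be told apart.

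**Figure D1:**
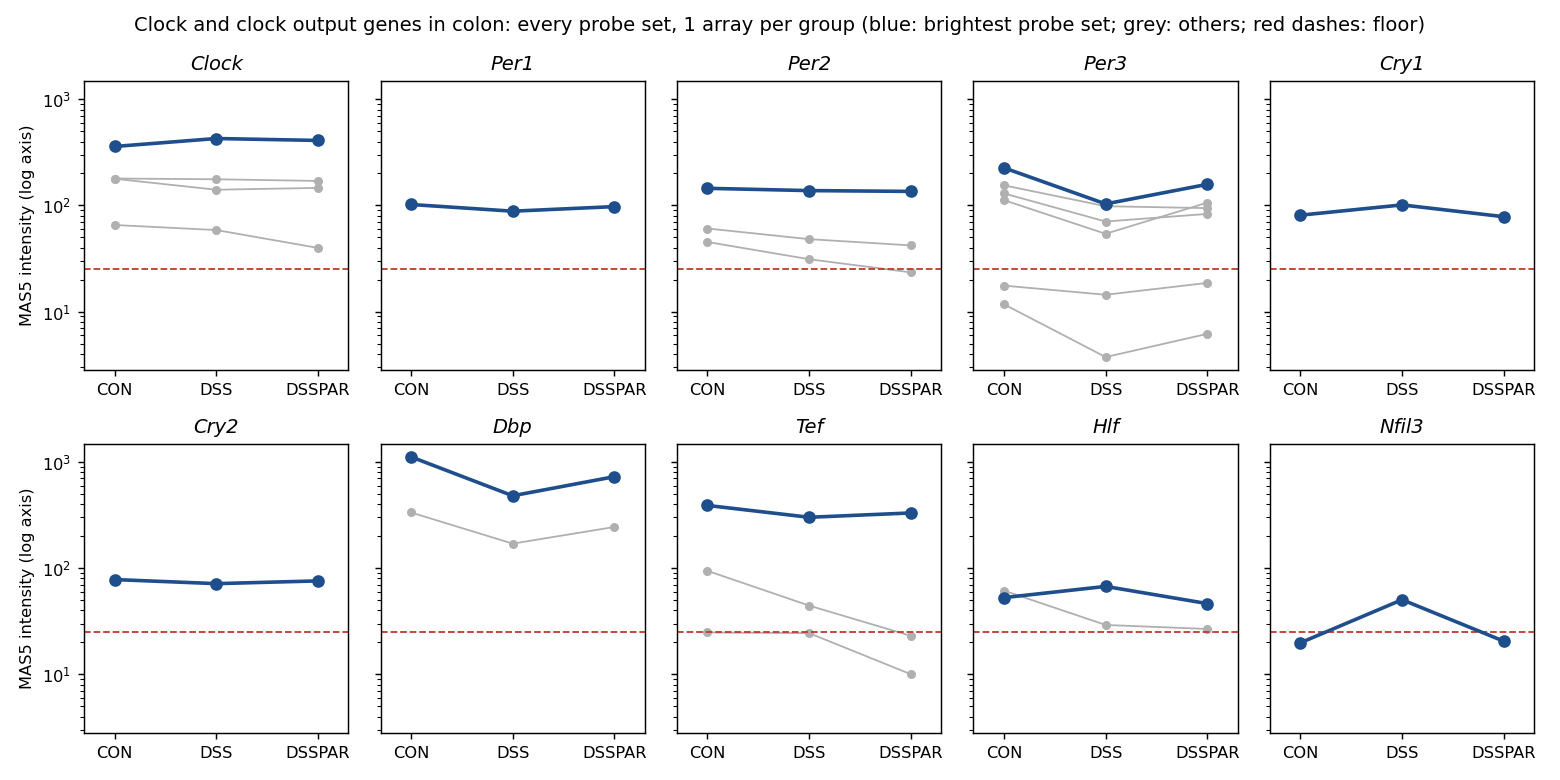
MAS5 intensity (log axis) of every probe set of the 10 genes in the colon arrays CON, DSS and DSSPAR, 1 point per array, with the brightest probe set of a gene in blue, the others in grey and the floor of 25.1 dashed. Both Dbp probe sets and the 4 Per3 probe sets above the floor were lower in DSS than in CON, and Nfil3 passed the floor in DSS alone.

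Clock, the activating partner of the loop, differed between the colon arrays by less than the spread between probe sets on its 3 brightest sets. The brightest read 359.2 in CON, 427.0 in DSS and 409.5 in DSSPAR. Of its 4 probe sets 1 lay above CON in DSS and 3 below, with log2 ratios between -0.34 and 0.25. The dimmest read 65.4, 58.6 and 39.8, lower in DSSPAR by more than that spread (log2 ratios of -0.56 to DSS and -0.72 to CON). Arntl, the other activator gene, read a log2 ratio of 0.10 for DSS against CON and Npas2, a paralogue of Clock, -0.09.

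Per3, a period gene, was the repressor that differed. Its brightest probe set read 226.1 in CON, 103.3 in DSS and 158.0 in DSSPAR, so CON was highest and DSS lowest. DSS was 2.19-fold below CON (log2 ratio -1.13), and 1.45% of all genes lay at least as far below. All 4 Per3 probe sets above the floor lay lower in DSS, by log2 ratios of -0.65 to -1.13, and their mean, -0.93, falls short of 2-fold. DSSPAR read 1.53-fold above DSS on the brightest probe set and 1.43-fold below CON. The 4 probe sets split on DSSPAR against DSS, with 3 above (up to a log2 ratio of 0.98) and 1 below (-0.06).

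Per1 and Per2, the other period genes, differed by less than the spread between probe sets on their brightest sets. Per1 read 102.0, 88.3 and 97.5 in CON, DSS and DSSPAR. Per2 read 144.9, 138.0 and 135.6, and its 2 dimmer probe sets, at 60.6 and 45.2 in CON, read lower in DSSPAR than in CON, the first at a log2 ratio of -0.53 and the second, under the floor in DSSPAR, at least 1.80-fold. Of the cryptochromes, which encode the partner repressors, Cry1 read 81.0, 101.1 and 78.3. Cry2 read 78.0, 71.4 and 75.8, a range of 1.09-fold. Each cryptochrome had a single probe set.

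Dbp, whose product activates D-box genes, had the lowest ratio of the 10 members for DSS against CON in colon. Its brighter probe set read 1117 in CON, 480.5 in DSS and 726.9 in DSSPAR. The dimmer probe set read 334.3, 170.1 and 244.2 in the same order. DSS lay below CON on both, 2.32-fold (log2 ratio -1.22) and 1.97-fold (-0.97), so the call at 2-fold rests on the brighter probe set, which is of a type that can be shared with other transcripts. Of all genes 1.19% lay at least as far below CON. DSSPAR was 1.51-fold and 1.44-fold above DSS, and 1.54-fold and 1.37-fold below CON.

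Tef and Hlf, the related activators, had probe sets that disagreed. Tef read 389.6, 301.3 and 331.0 on its brightest probe set, log2 ratios of -0.37 for DSS and -0.24 for DSSPAR against CON. A dimmer Tef probe set read 94.3, 44.3 and 23.0, and lay 2.13-fold and at least 3.76-fold below CON. Over both the mean for DSSPAR against CON was -1.07, which passes 2-fold. Hlf read 52.7, 67.3 and 46.3 on one probe set and 61.4, 29.1 and 26.7 on another, so that DSS lay above CON on the first (log2 ratio 0.35) and below it on the second (-1.08). No direction is given for that comparison. DSSPAR was the lowest array on both, with log2 ratios of -0.54 and -0.12 to DSS and of -0.19 and -1.20 to CON, in each case 1 beyond the spread between probe sets and 1 within it.

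Nfil3, the D-box repressor gene, was above the floor in DSS alone. Its single probe set read 19.8 in CON, 50.4 in DSS and 20.5 in DSSPAR. DSS was at least 2.01-fold higher than CON and at least 2.01-fold higher than DSSPAR, and 5.08% of all genes were at least as far above CON. With any of the 3 other scalings both differences fell short of 2-fold (log2 ratio 0.96 to 0.97 for DSS against CON). The 7 neutrophil markers had a summed intensity of 68.5 in CON, 3019 in DSS and 2411 in DSSPAR, with 0, 4 and 2 of them above the floor. Macrophage and monocyte markers summed to 895.1, 2739 and 2489. Both leukocyte sums lay above CON in DSS and in DSSPAR, and were lower in DSSPAR than in DSS. Marker sums of several other cell types were also highest in DSS and lowest in DSSPAR. Exocrine pancreas markers summed to 35.9, 1849 and 29.8, and enteric neuron and glia markers to 259.4, 283.2 and 168.3. Endothelial markers summed to 290.0, 500.1 and 267.4, with 5 of 5 above the floor on each array. Of these 5 genes 4 lay above CON in DSS, 2 of them at least 2-fold, and 1 lay below. Adipocyte markers summed to 67.1, 136.7 and 62.1, with 1, 2 and 1 of 4 above the floor. The part of the leukocytes and of these other cell types in the Nfil3 result was not tested.

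For DSSPAR against DSS in colon, 1 of 10 members was at least 2-fold off, Nfil3 on the low side, where 1.64% of 11730 genes were (0.392% higher and 1.24% lower). Over all genes 46 were higher and 146 lower, a split that was 108 and 79 with median centring, 68 and 99 when centred above the floor and 66 and 92 after quantile normalization. Past 1.5-fold were 3 members, Dbp and Per3 higher and Nfil3 lower (9.31% of all genes), and past 3-fold none (0.307%). The members' median was 0.03, against -0.01 over all genes. For DSSPAR against CON none of the 9 members measured passed 2-fold, where 5.61% of 11808 genes did (3.51% higher and 2.1% lower). The members' median was -0.10, against 0.03 over all genes, and 0.18 against 0.30 with median centring, so its sign depends on the scaling. The split over all genes, 415 higher and 248 lower, was then 890 and 121. Dbp alone passed 1.5-fold (19.7% of all genes) and none 3-fold (1.59%). Nfil3 was not measured there, both arrays being under the floor. These comparisons share arrays with the first, and their values for a gene are not independent.

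In liver, DSS against CON put Dbp and Cry2 below CON and Nfil3 above it. Of the 10 members 3 were at least 2-fold off, where 8.93% of all 13034 genes were, 1 higher (4.73% of all genes) and 2 lower (4.2%). The split over all genes, 616 higher and 548 lower, was 854 and 349 with median centring. Past 1.5-fold were 4 members (29.1% of all genes) and past 3-fold none (1.76%). The members' median log2 ratio was -0.08 and that of all genes -0.02.

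**Figure D2:**
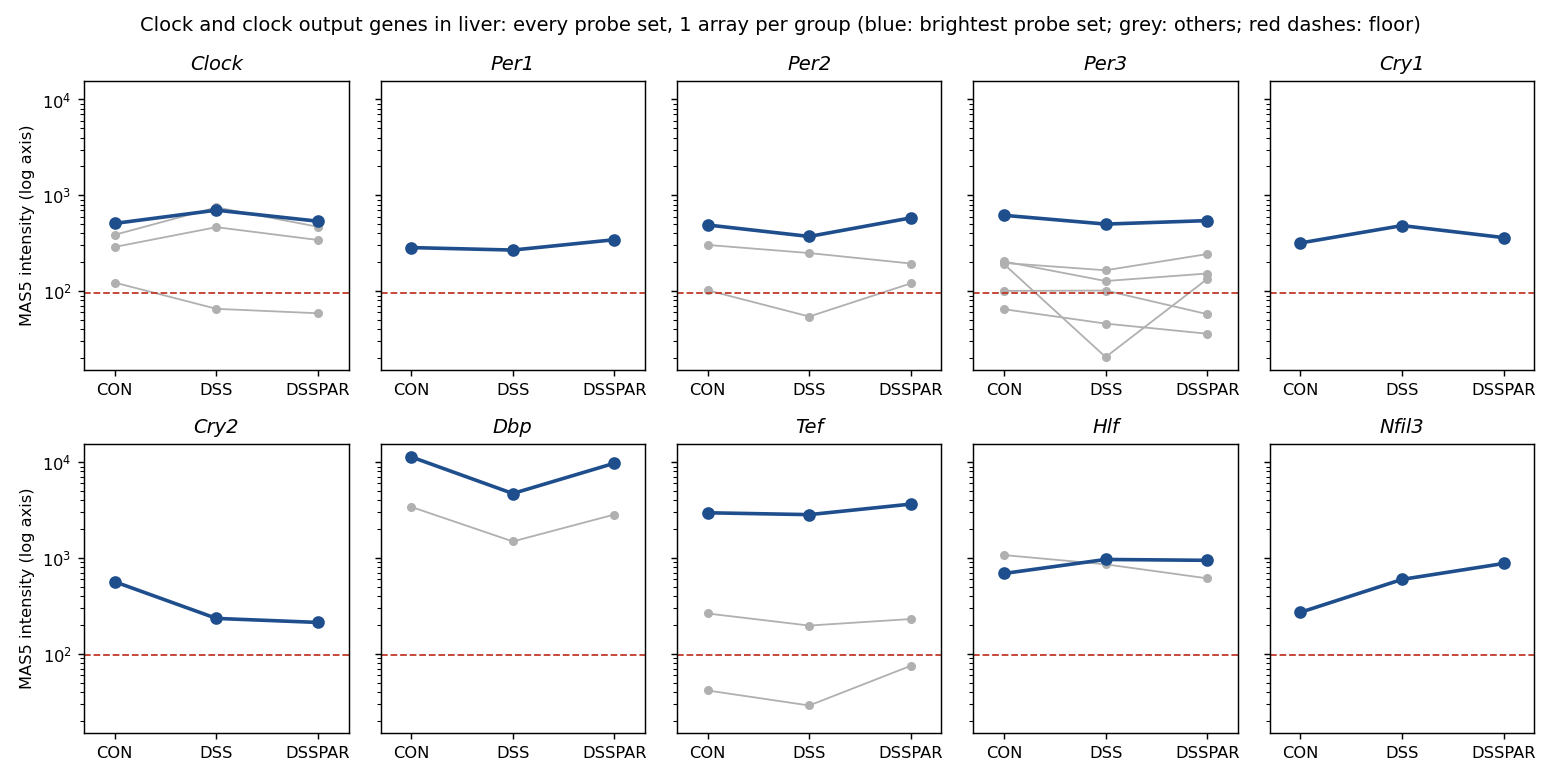
MAS5 intensity (log axis) of every probe set of the 10 genes in the liver arrays CON, DSS and DSSPAR, drawn as for colon with the floor at 96.6. Dbp was low in DSS alone, and Cry2 was low in DSS and DSSPAR. Nfil3 was high in both, with DSSPAR above DSS by less than the spread between probe sets.

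Clock read higher in the DSS liver on its 3 brightest probe sets and lower on the dimmest. The 3 brightest read 509.6, 387.6 and 289.6 in CON, 700.4, 749.0 and 465.4 in DSS, and 536.9, 469.4 and 342.0 in DSSPAR. DSS was the highest array on each, by log2 ratios of 0.46, 0.95 and 0.68 against CON, none of which reaches 2-fold. The first, on the brightest set, is within the spread between probe sets (0.560). The dimmest probe set was above the floor in CON alone, at 122.9, which bounds the log2 ratio for DSS against CON at -0.35. Arntl read 96.5, 176.5 and 116.5 in CON, DSS and DSSPAR, again with DSS highest, at a log2 ratio of 0.87 against CON whose CON value lies at the floor. Npas2 was under the floor on all 3 liver arrays.

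None of the period genes passed 2-fold in liver on its brightest probe set. Per1 read 285.1, 268.6 and 344.5, within a log2 ratio of 0.36. Per2 read 490.8, 372.5 and 582.0 on its brightest probe set, with DSS lowest and DSSPAR 1.56-fold above it, but the next probe set put DSSPAR lowest, at 194.4 against 303.8 in CON. Per3 read 619.0, 501.4 and 544.9, a log2 ratio of -0.30 for DSS against CON, and 4 of its 5 probe sets above the floor lay below CON in DSS. A dimmer Per3 probe set read 191.6, 20.6 and 134.3, under the floor in DSS, which makes DSS at least 1.98-fold lower than CON on it, and another gave a log2 ratio of -0.68. These sets share a direction but not a size, and the difference of Per3 between the tissues was not tested.

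Cry2 was low in the liver of both polymer groups, while Cry1 read above CON, in DSSPAR by less than the spread between probe sets. Cry2 read 565.6 in CON, 234.6 in DSS and 212.9 in DSSPAR, so both polymer arrays were low and close to each other. DSS was 2.41-fold (log2 ratio -1.27) and DSSPAR 2.66-fold (-1.41) below CON, and 1.73% and 0.880% of all genes lay at least as far below. With the floor at the 75th percentile both ratios were -0.62, because the polymer arrays then lay under the floor. Cry1 read 318.5, 483.5 and 362.3, with DSS 1.52-fold above CON, a log2 ratio of 0.60 against a spread of 0.560. With the higher floor that ratio was 0.40, within the spread. DSSPAR lay at a log2 ratio of 0.19 to CON, within a spread of 0.485. In colon Cry2 stayed within 1.09-fold, and each result rests on a single probe set.

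Dbp was lowest in the DSS liver. The brighter probe set read 11356 in CON, 4711 in DSS and 9754 in DSSPAR. The dimmer one read 3418, 1490 and 2845 in the same order. The order CON, DSSPAR, DSS was the same on both, and the step from CON to DSSPAR, log2 ratios of -0.22 and -0.26, was smaller than the spread between probe sets. DSS lay 2.41-fold (-1.27) and 2.29-fold (-1.20) below CON, and 1.74% of all genes lay at least as far below. DSSPAR lay 2.07-fold (1.05) and 1.91-fold (0.93) above DSS, so this call at 2-fold rests on the brighter probe set.

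Tef and Hlf stayed within 2-fold in liver. Tef read 2965, 2836 and 3653 on its brightest probe set, with DSS at a log2 ratio of -0.06 and DSSPAR at 0.30 against CON. Its dimmer probe set read 264.0, 197.5 and 231.1, so DSS was the lowest array on both, by -0.42 against CON on this one. Hlf probe sets disagreed again, reading 690.3, 966.5 and 946.5 on one and 1074, 859.7 and 613.8 on the other. Against CON, DSS and DSSPAR lay above on the first (log2 ratios 0.49 and 0.46) and below on the second (-0.32 and -0.81), so no direction is given for these comparisons. Against DSS, DSSPAR was lower on both (-0.03 and -0.49), within the spread between probe sets.

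Nfil3 had the highest ratio of the 10 members in the liver of both polymer groups. It read 271.5 in CON, 598.6 in DSS and 877.6 in DSSPAR, all above the floor. DSS was 2.20-fold above CON (log2 ratio 1.14) and DSSPAR 3.23-fold (1.69), and 0.550% of all genes lay at least as far above CON in DSSPAR. DSSPAR was 1.47-fold above DSS (0.55) in liver, which is within the spread between probe sets (0.569) and rests on a single probe set. In colon DSSPAR was at least 2.01-fold below DSS, and the difference between the tissues was not tested. Neutrophil markers summed to 1034, 23275 and 8678 in liver CON, DSS and DSSPAR, and macrophage and monocyte markers to 12542, 20246 and 21250. Both sums were higher in DSS and in DSSPAR than in CON, as Nfil3 was, and the neutrophil sum was highest in DSS. The part of both cell groups in the Nfil3 result was not tested.

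Against DSS, 1 of 10 members was at least 2-fold higher in the DSSPAR liver and none lower (Dbp), where 7.03% of 12398 genes were past 2-fold (2.8% higher and 4.23% lower). The split over all genes, 347 higher and 525 lower, was 674 and 332 with median centring. Past 1.5-fold were Dbp and Per2 (27.8% of all genes), and past 3-fold none (0.831%). The members' median log2 ratio was 0.24, against -0.02 over all genes. Against CON, 2 of 10 were past 2-fold, Nfil3 higher and Cry2 lower, where 6.71% of 12721 genes were (3.26% higher and 3.45% lower), with a median of 0.22 against -0.04. The split over all genes, 415 higher and 439 lower, was 1007 and 188 with median centring. The same 2 members were past 1.5-fold (24.6% of all genes), and Nfil3 alone was past 3-fold (1.09%).

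**Figure D3:**
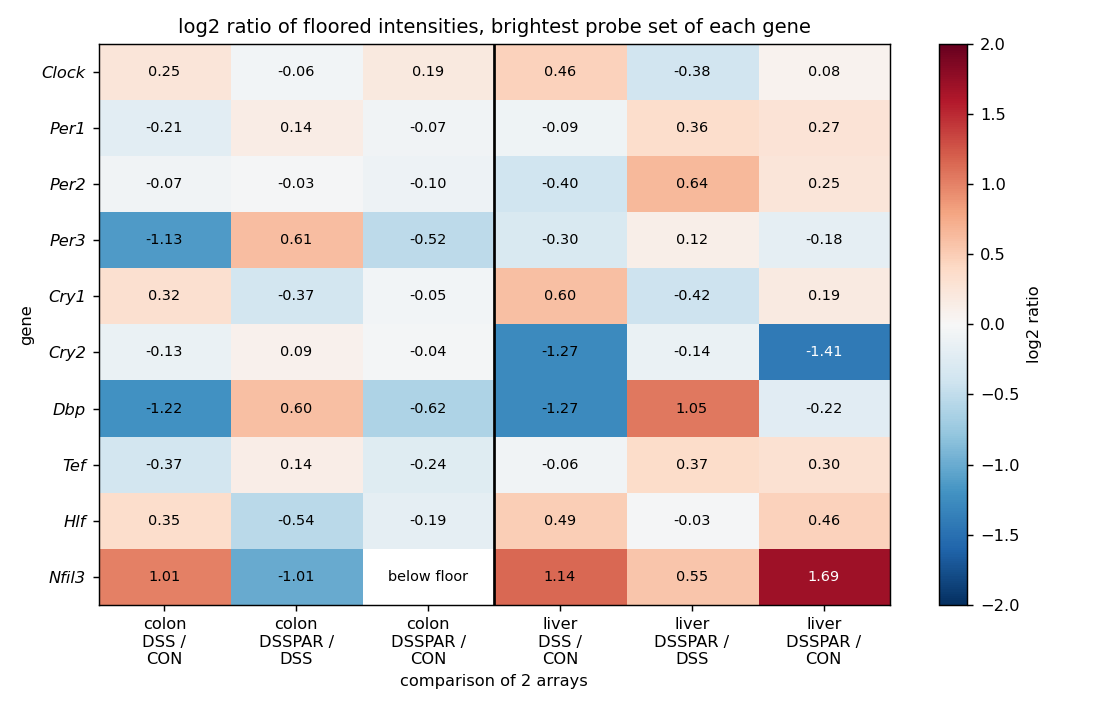
Log2 ratio of each gene (rows, brightest probe set, floored intensities) in the 6 comparisons (columns, 3 per tissue), red for higher and blue for lower in the array named first. Dbp is blue and Nfil3 red for DSS against CON in both tissues (-1.22 and 1.01 in colon, -1.27 and 1.14 in liver), while Per3 reaches -1.13 in colon and Cry2 -1.27 in liver.

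Of 12 other genes of the loop listed, 8 were measured in colon for DSS against CON. None passed 2-fold, where 7.15% of all genes did (median -0.24). Nr1d2, a REV-ERB gene that represses Arntl, was bright in colon and read 1533, 968.5 and 1167 in CON, DSS and DSSPAR, with DSS lowest at a log2 ratio of -0.66. Ciart, a repressor of CLOCK and BMAL1, read 56.8, 38.1 and 69.0, with a log2 ratio of 0.86 for DSSPAR against DSS. In liver, where 8.93% of all genes passed 2-fold, 6 were measured for DSS against CON. Of these 1 passed it, on the low side (4.2% of all genes), and the list's median was 0.28. The gene past 2-fold was Nr1d1, the main REV-ERB gene, which read 241.1 in CON, 30.6 in DSS and 88.0 in DSSPAR. Both polymer arrays were under the floor, so the log2 ratio to CON, -1.32 in each, is a bound on a larger difference. Nr1d2 did not share this, at 11949, 16494 and 10953 with DSS highest, although its dimmer probe set read lower in DSS. Bhlhe40, an E-box repressor gene, read 2622, 1660 and 3042, with log2 ratios of -0.66 for DSS against CON and 0.87 for DSSPAR against DSS.

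Kinases and ubiquitin ligases that set the life span of PER and CRY proteins were read as a second list. For DSS against CON none of 11 measured in colon and none of 12 in liver passed 2-fold, with medians of -0.29 and -0.27. Among all genes 7.15% passed it in colon and 8.93% in liver, so for lists this short none is near the share. Csnk2a1, a subunit of casein kinase 2, read 602.3, 496.2 and 241.7 in colon, with DSSPAR 2.05-fold below DSS, but its brightest probe set of unshared type gave a log2 ratio of 0.0076. Of its 6 probe sets measured, 5 were lower in DSSPAR than in DSS and 6 lower than in CON, by a log2 ratio of -1.32 on the brightest. Huwe1, a ubiquitin ligase of CRY proteins in mouse, read 815.5, 569.9 and 1249 in liver and was 2.19-fold higher in DSSPAR than in DSS.

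Genes known as targets of PAR bZIP factors in mouse liver were read beside Dbp. Of 9 listed, 5 were measured in liver. For DSS against CON none passed 2-fold, where 8.93% of all genes did, with 3 below CON and a median of -0.58. Alas1, the first enzyme of haem synthesis, read 8844 in CON, 5039 in DSS and 11217 in DSSPAR. The cytochrome P450 gene Cyp2c50 read 33939, 19563 and 35751. Ppara, a nuclear receptor of fatty acid oxidation, read 5897, 3946 and 6133. In these 3 genes DSS was the lowest array, as for Dbp, and Alas1 was 2.23-fold higher in DSSPAR than in DSS. Cyp7a1, the rate-limiting enzyme of bile acid synthesis, had another order at 3972, 6648 and 9114, with DSSPAR 2.29-fold above CON. Nr1i3, the xenobiotic receptor CAR, stayed within a log2 ratio of 0.20. In colon 3 of the listed genes were measured, 2 above CON in DSS and 1 below, with a median of 0.43. Ppara read 134.8, 44.7 and 52.3 there, and was 3.01-fold lower in DSS than in CON. Alas1 read 446.6, 603.2 and 532.0 on its brightest probe set, a log2 ratio of 0.43 for DSS against CON. Its 2 probe sets measured disagreed, with 1 higher in DSS and 1 lower. Nr1i3 read 24.4, 37.0 and 42.7, under the floor in CON, so its log2 ratio of 0.56 is a bound.

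Among 16 listed rhythmic output genes, 15 were measured in liver. For DSS against CON 2 were at least 2-fold higher (4.73% of all genes) and 3 lower (4.2%), with a median of -0.43. The list was chosen for daily rhythms, and its members have different functions. Elovl3, a fatty acid elongase, read 5938, 596.6 and 980.6, so DSS was 9.95-fold and DSSPAR 6.06-fold below CON. Rgs16, a regulator of G protein signals that follows feeding time, read 7552, 1403 and 3118, 5.38-fold and 2.42-fold below CON. Gys2, the liver glycogen synthase, read 5233, 1952 and 4267, with DSS 2.68-fold below CON and DSSPAR 2.19-fold above DSS. The higher ones were Tspan4, a membrane tetraspanin, at 2998, 9494 and 6594, and Tfrc, the transferrin receptor, at 1965, 6131 and 2803. In colon 11 were measured, 4 of them at least 2-fold higher in DSS than in CON and none lower (median 0.29). The shares of all genes there were 5.18% higher and 1.97% lower. The higher genes were led by Tspan4 (3.54-fold) and Pfkfb3, an activator of glycolysis (at least 3.21-fold).

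**Figure D4:**
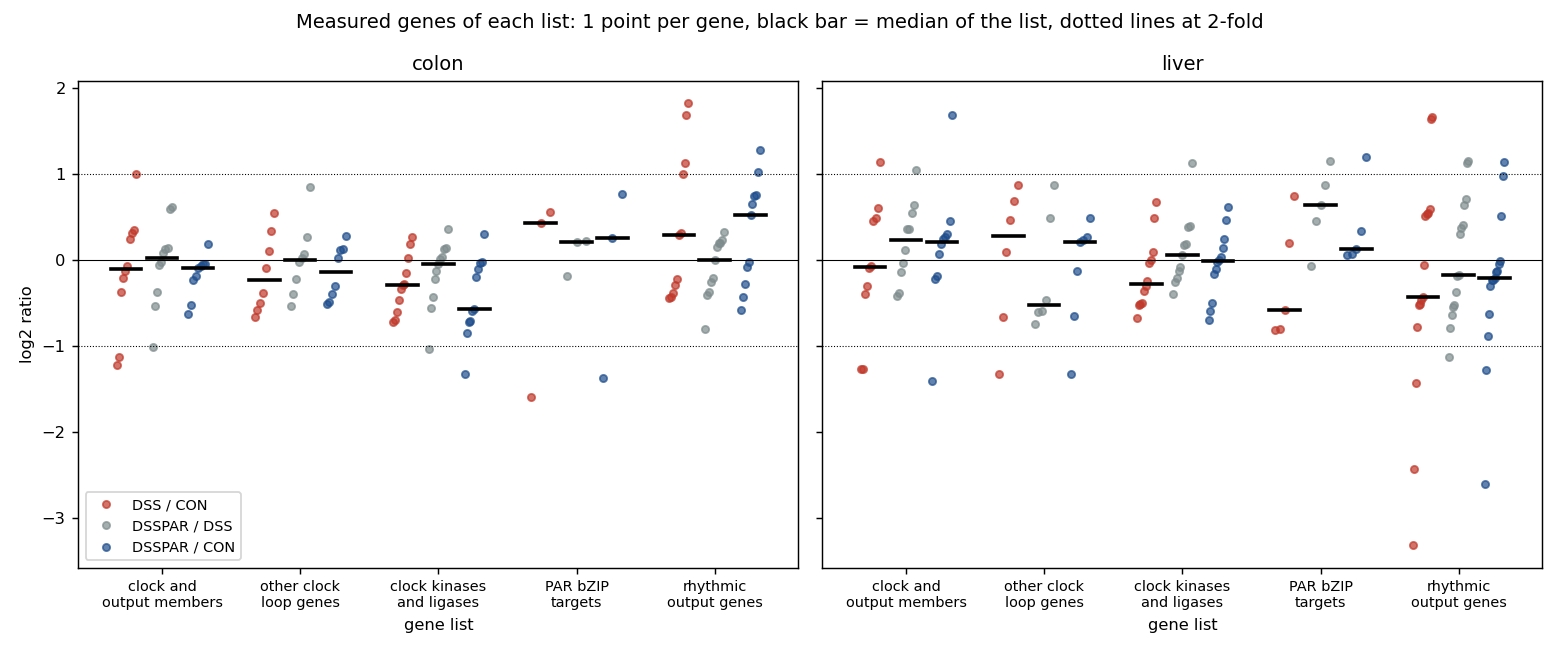
Log2 ratio (vertical axis) of every measured gene of 5 lists in colon and liver, 1 point per gene, coloured by comparison, with the list's median as a black bar and dotted lines at 2-fold. In liver the rhythmic output genes reach from -3.32 (Elovl3) to 1.66 (Tspan4) for DSS against CON. None of the kinases and ligases passes 2-fold there, where 8.93% of all genes do.

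Genes that respond to feeding were read in both tissues. In colon none of the 8 feeding-induced genes measured passed 2-fold for DSS against CON (median -0.13), where 7.15% of all genes did. Of 8 feeding-induced genes measured in liver, 6 were at least 2-fold lower in DSS than in CON and none higher (median -1.19). Of all genes 4.2% were lower and 4.73% higher. For DSSPAR against DSS 3 of the 8 were at least 2-fold higher (median 0.81), where 2.8% of all genes were. Fasn, the fatty acid synthase, read 5283, 1313 and 4981 in CON, DSS and DSSPAR. Of 9 fasting-induced genes measured in liver, 2 were higher and 1 lower in DSS than in CON. The part of feeding in the clock genes' values was not tested in either tissue.

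Likeness was measured as the distance over the 6 arrays between log2 values, among 9322 genes bright enough in both tissues. Values under the floor were first raised to it, and each tissue was centred on its own mean. The nearest to Dbp were Ctns, a lysosomal cystine transporter (distance 0.19), Farp2 (0.22), Hykk (0.34) and Mlxipl, the carbohydrate-responsive factor ChREBP (0.34), beside a predicted gene. Ctns read 76.0, 35.4 and 46.1 in colon and 275.4, 121.8 and 227.6 in liver. Mlxipl read 117.1, 63.9 and 85.7 in colon and 1960, 1028 and 1912 in liver. The order shared with Dbp, DSS lowest in both tissues, follows from the choice by likeness. The nearest to Nfil3 were Dnajc18 (0.43), Il6st, the signal-transducing receptor chain of the interleukin 6 family (0.44), Pirb (0.45), Pros1 (0.47) and Ddx28 (0.48). In colon CON and DSSPAR Nfil3 itself was set to the floor, so its colon profile in this ranking depends on the floor. Il6st read 238.4, 485.4 and 263.1 in colon and 1350, 2929 and 3023 in liver. These distances rank genes over 6 arrays and carry no test.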

How the data were processed

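RNA pools of 6 groups, 3 conditions in 2 tissues, were read on 1 array each, and groups were taken from the titles. The deposited values are intensities on a linear scale, made with MAS5, per the submitters' processing notes whose version and target are not named in the sources used here. All value columns had a sample, leaving 0 unused. Of 45101 probe sets 34958 carried 1 symbol, 932 several and 9211 were not listed in the platform annotation. A gene was represented by its probe set of highest mean log2 intensity in a tissue. A gene was compared where either array exceeded the floor, the median of the tissue's 3 arrays, to which lower values were raised. With 1 array per group no test was run, and genes past 2-fold were counted beside the share of all genes. The members, the lists and the alternatives were chosen with earlier results of these data known. Named are all members, up to 6 genes per list and comparison with the largest ratios, Arntl, Npas2, Nr1d1 and Nr1d2, and the 5 genes nearest to Dbp and to Nfil3 among genes reaching the 60th percentile in both tissues. The ratio procedure was tested on simulated data. Marker lists for 10 cell types were also read. Python 3.11.15, NumPy 2.4.6, pandas 2.3.3 and matplotlib 3.10.9 were used.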

Additional observations from a re-analysis of the deposited data

How the results depend on the processing

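Alternatives were a floor at the 75th percentile or none, centring of arrays (at the median, or over values above the floor), quantile normalization, the mean over probe sets, no probe sets of shared type (_s_at, _x_at, _a_at), and thresholds of 1.5-fold and 3-fold. Of 388 member values under the alternatives to the ratio, 381 moved by less than the spread between probe sets, 7 moved by more and 0 of those past 2-fold changed sign. Of 68 values of members past 2-fold, 55 stayed past it. Centring on medians moved the median of all genes by up to 0.29. In colon, the count of members past 2-fold for DSSPAR against DSS, 1 as reported, was 0 with the higher floor, both centrings, quantile normalization and the 3-fold threshold, and 3 at 1.5-fold. For DSSPAR against CON it was 1 with the mean over probe sets (Tef) and 1 at 1.5-fold, in place of 0. For DSS against CON it was 0 at 3-fold in colon and in liver, in place of 3, and 1 in liver with the higher floor. In liver, the count for DSSPAR against DSS, 1 as reported, was 0 with the mean over probe sets, without shared probe sets and at 3-fold, and 2 at 1.5-fold. For DSSPAR against CON it was 1 with the higher floor and at 3-fold, in place of 2. Other counts of members stayed within 1.5 times. The cause of these differences was not tested. Csnk2a1 in the DSSPAR colon against DSS, at -1.04, changed sign to 0.0076 without shared probe sets. The higher floor gave no value for Nfil3 in colon. Signal over background limits Nfil3 in colon and Cry2 and Nr1d1 in liver. No paired analysis was possible because each group has 1 array.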

Other observations

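Genes induced by glucocorticoids, hormones that can set peripheral clocks, were read in both tissues beside Per1, itself such a gene. In liver 10 of 10 were measured, and past 2-fold for DSS against CON were 3 higher and 1 lower genes. Of all genes 4.73% were higher and 4.2% lower. The median log2 ratio was 0.30 against -0.02 over all genes. The higher ones were Mt1 and Mt2, metallothioneins that bind zinc, at 46.5-fold and 70.8-fold, and Fkbp5, a cochaperone of the glucocorticoid receptor, which read 968.3 in CON, 2036 in DSS and 1897 in DSSPAR. Dusp1, a phosphatase of MAP kinases, was 2.96-fold lower in DSS at 3626, 1224 and 1699. Sgk1, a kinase, read 1132, 1959 and 1907 in liver and 1167, 660.4 and 954.0 in colon, so DSS lay above CON in liver (log2 ratio 0.79) and below it in colon (-0.82), a difference that was not tested.

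Cytokine response genes were higher in both tissues. Of 12 listed, 12 were measured in colon, and 7 were at least 2-fold higher in DSS than in CON and none lower (median 1.46). In liver 8 of 11 were higher and none lower (median 1.25). Of all genes 5.18% were at least 2-fold higher in colon for this comparison and 4.73% in liver. Stat3, a transcription factor downstream of interleukin 6, read 1145, 2347 and 3715 in liver CON, DSS and DSSPAR, and Cxcl1, a neutrophil chemokine, 1829, 36092 and 18538. Stat3 was highest in DSSPAR, and Cxcl1 in DSS. Nfil3 was also highest in the DSSPAR liver, but above DSS by less than the spread between probe sets.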
